A study of Homo sapiens with 6 samples.

Results

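PRDM1 and BCL6 are zinc finger transcriptional repressors, and they were examined with 4 relatives of PRDM1 (PRDM2, PRDM4, PRDM10 and PRDM15) in OVSAYO cells treated with microRNA inhibitors. The members are all array probes whose single annotated gene symbol is one of these 6 genes. That gave 14 of the 48803 probes on the array, and the 6 genes stand among 18852 genes with such a probe. PRDM1 was chosen by the difference between the groups that its probe ILMN_1655077 showed in an earlier look at these arrays, and the other genes were named beside it. The differences between the groups are therefore given for the members as a description, and no test of them is offered as support.

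OVSAYO cells derive from a clear cell carcinoma of the ovary, and they are the only line measured. In the inhibitor group 3 cultures received 44 nM of a hairpin inhibitor of miR-30a mixed with 22 nM of a hairpin inhibitor of miR-30d. In the control group 3 cultures received 66 nM of a hairpin inhibitor built on a worm microRNA with little similarity to human ones. Both groups were transfected with the same lipid reagent, and RNA was taken 48 hours later and measured on 1 single-colour Illumina array per culture. Mimics are named in the series' design text, but every sample label and the transfection protocol name inhibitors, which is the reading used here. The labels call the 3 samples of a group biological replicates without saying what separated them, so SDs cover the spread between these samples only. Mature miR-30 was not measured on these arrays, so how far it was blocked is unknown here.

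PRDM1, also called BLIMP-1, shuts down the B cell programme when B cells become plasma cells, and it also acts in skin, gut and placental epithelium. BCL6 holds germinal centre B cells in their state, and the pair are known to repress each other's genes. Most PRDM proteins join a PR domain, related to histone methyltransferase domains, to zinc fingers that bind DNA, whereas BCL6 carries a BTB domain that recruits corepressors. A microRNA pairs through its seed with mRNAs and lowers their stability or their translation, and PRDM1 is a reported target of the miR-30 family.

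The seed of the miR-30 family is shown because the inhibitors were aimed at its members miR-30a and miR-30d. The mature sequences below are from RefSeq (GRCh38.p14), 5′ to 3′, with the seed, bases 2 to 8, in capitals.
hsa-miR-30a-5p: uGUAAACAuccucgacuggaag
hsa-miR-30c-5p: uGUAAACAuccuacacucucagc
hsa-miR-30e-5p: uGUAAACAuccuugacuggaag
miR-30a lies at chr6:71403595-71403616 on the minus strand and miR-30e at chr1:40754371-40754392 on the plus strand. miR-30c has a copy at chr1:40757300-40757322 on the plus strand and a copy at chr6:71377003-71377025 on the minus strand. All 3 shown carry the seed GUAAACA, so an mRNA with a match to it could pair with any of these 3. The sequence of miR-30d, which the inhibitor mix also targeted, is not shown here. No 3′ UTR sequence was used here, so seed sites in the members were not searched.

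The mean deposited signal was 222.6, 239.9 and 237.2 on the control arrays and 258.5, 240.3 and 257.8 on the inhibitor arrays, so each inhibitor array was brighter before normalization than each control. The median signal was 47.5 to 49.9 and 44.1 to 48.3, between 43.4% and 45.2% of probes were detected on each array, and the lowest signal called detected ran from 46.2 to 52.9. Of 11 clear cell and epithelial markers with a probe, 11 passed the detection filter, among them PAX8, EPCAM and NAPSA. Of 9 B cell and plasma cell markers with a probe 4 passed, MS4A1, CD79A, CD79B and MZB1. Their mean normalized log2 level ran from 5.21 to 5.38 on the control arrays and from 5.30 to 5.39 on the inhibitor arrays. CD79B was the highest of them, at 6.46 to 6.72 over all arrays. PAX5, POU2AF1, SLAMF7 and the plasma cell genes JCHAIN and TNFRSF17 did not pass. Of 8 T cell and myeloid markers 1 passed, CD14, at 5.84 to 5.93 on the control arrays and 5.72 to 5.77 on the inhibitor arrays. Of 8 fibroblast markers 3 passed, DCN, LUM and PDGFRA, and COL1A1, COL1A2, COL3A1, PDGFRB and THY1 did not. Of 5 endothelial markers 2 passed, PECAM1 and TEK, and CDH5, KDR and VWF did not. The fibroblast markers had a mean of 5.32 to 5.36 on the control arrays and 5.32 to 5.52 on the inhibitor arrays, and the endothelial ones 4.66 to 4.77 and 4.50 to 4.65. The endothelial and leukocyte marker PECAM1 had 5.15, 4.91 and 4.93 on the controls and 4.62, 4.75 and 4.67 with the inhibitor. The difference was −0.32 ± 0.09 (SE, limma adjusted p 0.440), and the groups did not overlap, as in 15.5% of probes past the filter. The part of these marker levels in the results on the members was not tested.

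Of the 14 member probes, 10 passed the filter, which asked that 3 or more of the 6 arrays have a detection score over 0.95. They were 2 of 4 for PRDM1, 1 of 1 for BCL6, 4 of 5 for PRDM2, 1 of 1 for PRDM4, 2 of 2 for PRDM10 and 0 of 1 for PRDM15. With the inhibitor 3 of the 10 probes had a higher mean and 7 a lower one. Over all 12183 measured genes, each by its kept probe with the highest mean, 6344 were higher and 5839 lower. With limma 0 of the 10 had an adjusted p under 0.05, against 0.00% of all 21928 kept probes, where the lowest adjusted p was 0.440 and 10.0% had an unadjusted p under 0.05. In 2 of the 10 the groups did not overlap, as in 15.5% of all kept probes. In both every inhibitor array was above the controls, as in 8.40% of all kept probes, and in 0 of the 10 they lay below, as in 7.12%. The member probes counted as higher and as not overlapping include ILMN_1655077, by whose difference PRDM1 was chosen. These counts are therefore not read against the shares.

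**Figure D1:**
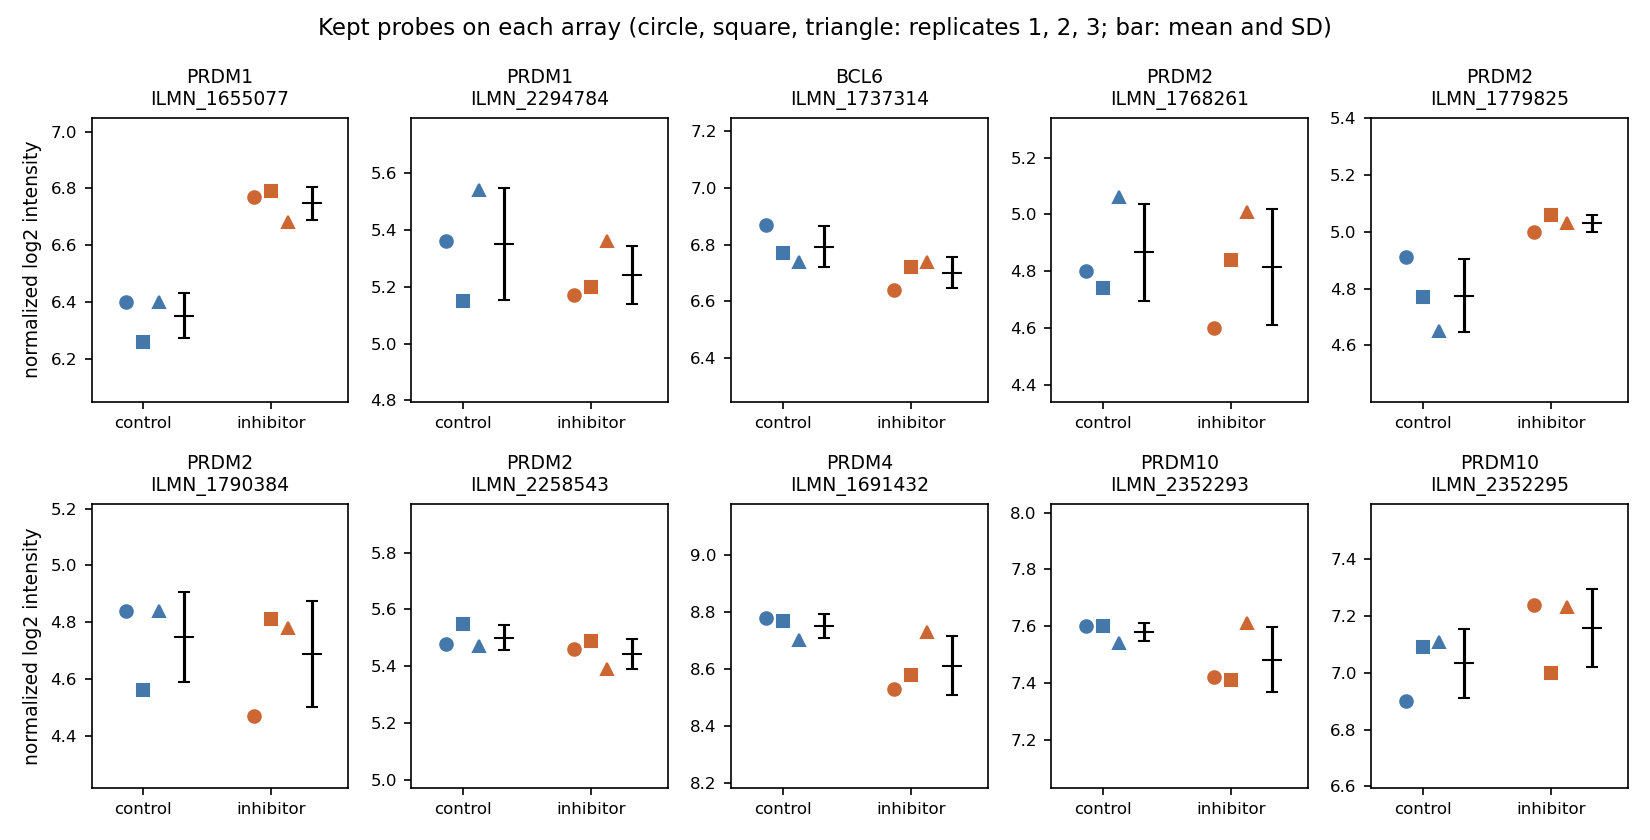
Normalized log2 intensity of each kept member probe on the 3 control arrays (blue) and the 3 inhibitor arrays (orange), with the group mean and SD in black; every panel spans 1 log2 unit. The groups stand apart for PRDM1 probe ILMN_1655077 and PRDM2 probe ILMN_1779825, and they overlap for the other 8 probes.

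PRDM1 was detected on every array by probe ILMN_1655077, which the platform annotates to transcript NM_001198. Its deposited signal was 104.2, 104.2 and 108.4 on control replicates 1, 2 and 3 and 144.6, 131.1 and 137.1 on inhibitor replicates 1, 2 and 3. On the normalized log2 scale these were 6.40, 6.26 and 6.40 against 6.77, 6.79 and 6.68. Every inhibitor array was above every control array, with a gap of 0.28 between the nearest values. The group means were 6.35 ± 0.08 (SD, n = 3) and 6.75 ± 0.06, a difference of 0.40 ± 0.08 (SE), or 1.31-fold. Each value averages 35 to 52 beads, and the standard error of the bead mean was 3.9 to 5.5 signal units, below the distance between the groups. This standard error covers the beads of 1 array, not the spread between cultures. In the authors' normalized value table the difference was smaller, at 0.25.

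The second kept PRDM1 probe, ILMN_2294784, is annotated to another transcript, NM_182907, and gave no such difference. Its signal was 66.3, 64.2 and 72.4 on the controls and 65, 59.5 and 67.4 with the inhibitor. In normalized log2 values that was 5.36, 5.15 and 5.54 against 5.17, 5.20 and 5.36, and the groups overlapped. The difference was −0.11 ± 0.11 (SE), and the control SD of 0.20 was wider than that of the first probe. Without control replicate 3 the difference was −0.01, and without control replicate 2 it was −0.21, so single control arrays set its size.

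The remaining pair of PRDM1 probes was near or below background, although both are annotated to NM_001198, the transcript of the probe that differed. ILMN_2298159 had a signal of 37.5 to 48.2 and was detected on 0 of 3 control arrays and 1 of 3 inhibitor arrays, with a detection score of 0.953 on inhibitor replicate 3. ILMN_2414165 had 38.4 to 47.0 and was detected on 0 of 6 arrays. These probes give no fold change. The higher PRDM1 value with the inhibitor therefore rests on 1 of 4 probes.

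**Figure D2:**
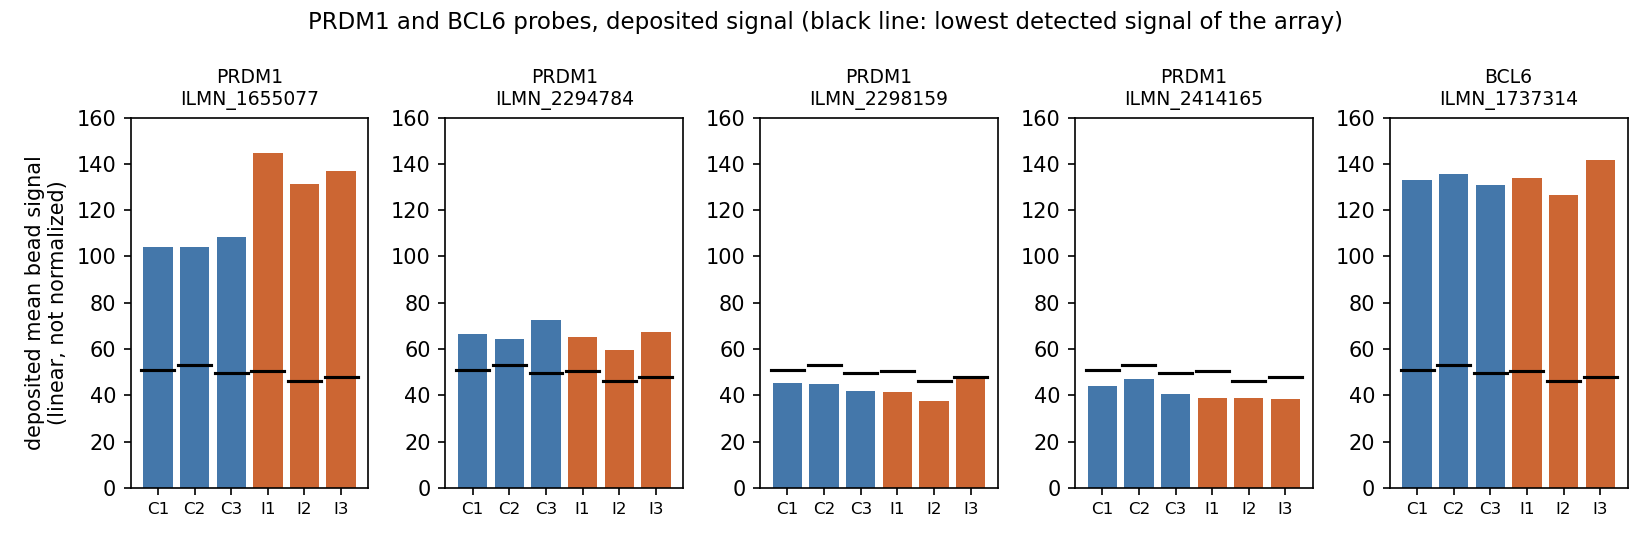
Deposited bead signal (linear scale, before any normalization) of the 4 PRDM1 probes and the BCL6 probe on control arrays C1 to C3 and inhibitor arrays I1 to I3, with each array's lowest detected signal as a black line. PRDM1 probe ILMN_1655077 ran from 104.2 to 108.4 on the controls and from 131.1 to 144.6 with the inhibitor, ILMN_2294784 stayed between 59.5 and 72.4, and ILMN_2414165 stayed under the line on every array.

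Since the kept PRDM1 probes are annotated to different transcripts, the start regions of the gene are shown. RefSeq's promoter table (GRCh38.p14) lists 2 start windows for PRDM1, each 250 bases before a start to 50 after it, and does not say which transcript begins at which. BCL6 has 2 windows as well, of which the upstream one is shown because it holds matches to the element that BCL6 binds. Capitals mark matches to TTCNNNGAA, the element that STAT factors bind and that BCL6 sites resemble.
PRDM1 window 1, chr6:106086086-106086385, plus strand: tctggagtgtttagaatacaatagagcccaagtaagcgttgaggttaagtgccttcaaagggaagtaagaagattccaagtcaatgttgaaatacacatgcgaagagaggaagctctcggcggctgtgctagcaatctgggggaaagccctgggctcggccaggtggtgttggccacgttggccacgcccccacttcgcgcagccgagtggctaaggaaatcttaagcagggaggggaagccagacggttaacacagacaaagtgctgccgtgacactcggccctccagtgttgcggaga
PRDM1 window 2, chr6:106098691-106098990, plus strand: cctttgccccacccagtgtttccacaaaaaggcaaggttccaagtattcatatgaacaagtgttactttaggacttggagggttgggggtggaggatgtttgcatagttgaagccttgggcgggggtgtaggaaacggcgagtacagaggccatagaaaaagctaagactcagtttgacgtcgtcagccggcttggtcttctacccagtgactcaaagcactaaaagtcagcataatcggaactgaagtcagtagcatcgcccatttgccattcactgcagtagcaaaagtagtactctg
BCL6 window 1, chr3:187745419-187745718, minus strand: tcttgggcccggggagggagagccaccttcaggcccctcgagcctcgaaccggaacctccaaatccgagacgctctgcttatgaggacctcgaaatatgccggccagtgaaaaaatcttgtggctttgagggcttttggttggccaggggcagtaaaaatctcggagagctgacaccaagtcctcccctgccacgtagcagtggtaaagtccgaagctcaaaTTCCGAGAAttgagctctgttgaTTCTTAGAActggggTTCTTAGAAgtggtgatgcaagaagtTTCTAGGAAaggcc
The BCL6 window holds 4 matches to TTCNNNGAA. At least 1 match is found in 7.66% of all 35116 windows, and 7 windows hold 4 or more. The match that begins 36 bases after the start is also the full BCL6 motif TTCCTAGAA, read on the opposite strand, which 0.373% of windows hold. BCL6 is known to bind its own first exon and repress itself. The PRDM1 motif searched was AGNGAAAG, on both strands, which 7.99% of all windows hold and the windows of PRDM1 and BCL6 do not. A match is a description of letters, and its absence says only that these letters are not in the window.

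BCL6 had 1 probe, ILMN_1737314 (transcript NM_001706), detected on all 6 arrays. Its deposited signal was 133.2, 135.8 and 130.7 on the controls and 133.9, 126.6 and 141.6 with the inhibitor, with means of 133.2 and 134.0. After normalization the log2 values were 6.87, 6.77 and 6.74 against 6.64, 6.72 and 6.74. The groups overlapped, and inhibitor replicate 3 was level with control replicate 3. The difference was −0.09 ± 0.08 (SE), from 6.79 ± 0.07 (SD, n = 3) to 6.70 ± 0.06. With median centring, which moved the median of all kept probes to 0.10, the BCL6 difference was 0.03, or −0.07 relative to that median.

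PRDM2, whose form RIZ1 is a histone methyltransferase often silenced in tumours, had probes that disagreed with each other. Probe ILMN_1779825, annotated to NM_012231, had log2 values of 4.91, 4.77 and 4.65 on the controls and 5.00, 5.06 and 5.03 with the inhibitor. The inhibitor values lay above all controls, and the difference was 0.25 ± 0.08 (SE). In deposited signal this was 51.5 to 56.4 against 56.0 to 60.8, ranges that overlap and lie close to the lowest detected signal, and in the authors' normalized value table the difference was 0.10. ILMN_2258543, annotated to the same transcript, had 5.48, 5.55 and 5.47 against 5.46, 5.49 and 5.39, with overlapping groups and a difference of −0.06 ± 0.07. Its signal, 67.4 to 75.1, was farther above background. A difference of PRDM2 with the inhibitor was thus carried by 1 of the 4 kept probes.

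The probes for NM_001007257 of PRDM2 had differences of −0.05 ± 0.12 (ILMN_1768261) and −0.06 ± 0.11 (SE, ILMN_1790384). ILMN_1768261 had 4.80, 4.74 and 5.06 on the controls and 4.60, 4.84 and 5.01 with the inhibitor. ILMN_1790384 had 4.84, 4.56 and 4.84 against 4.47, 4.81 and 4.78, and it was detected on 2 of 3 arrays in each group. The signals of these probes, 51.4 to 59.5 and 49.1 to 55.2, lay close to the lowest detected signal. In both probes inhibitor replicate 1 was the lowest inhibitor array and control replicate 2 the lowest control array. Without inhibitor replicate 1 the differences were 0.06 and 0.05. The probe for NM_015866, ILMN_1652992, had a signal of 41.3 to 43.4, was detected on 0 of 6 arrays and gives no fold change.

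PRDM4, a regulator of cell growth and neural progenitor division, had 1 probe, ILMN_1691432. Its log2 values were 8.78, 8.77 and 8.70 on the controls and 8.53, 8.58 and 8.73 with the inhibitor. Inhibitor replicates 1 and 2 were below every control, whereas inhibitor replicate 3 lay among them. The difference was −0.14 ± 0.08 (SE), and with median centring it was 0.01, or −0.09 relative to the median of all kept probes. The deposited signal ran the other way in its means, 433.4 on the controls and 439.4 with the inhibitor.

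PRDM10, which regulates transcription in early embryos of mice, had 2 probes for the same transcript, NM_020228, with differences of opposite sign. ILMN_2352293 had 7.60, 7.60 and 7.54 on the controls and 7.42, 7.41 and 7.61 with the inhibitor, a difference of −0.10 ± 0.08 (SE). As for PRDM4, inhibitor replicates 1 and 2 were low and inhibitor replicate 3 was at the level of the controls. ILMN_2352295 had 6.90, 7.09 and 7.11 against 7.24, 7.0 and 7.23, a difference of 0.12 ± 0.10, and here inhibitor replicate 2 was the low array. The groups overlapped for both probes. PRDM15, a regulator of pluripotency in mouse embryonic cells, was near background on its only probe, ILMN_1682491, with a signal of 44.3 to 50.5 and detection on 1 of 3 control and 0 of 3 inhibitor arrays.

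**Figure D3:**
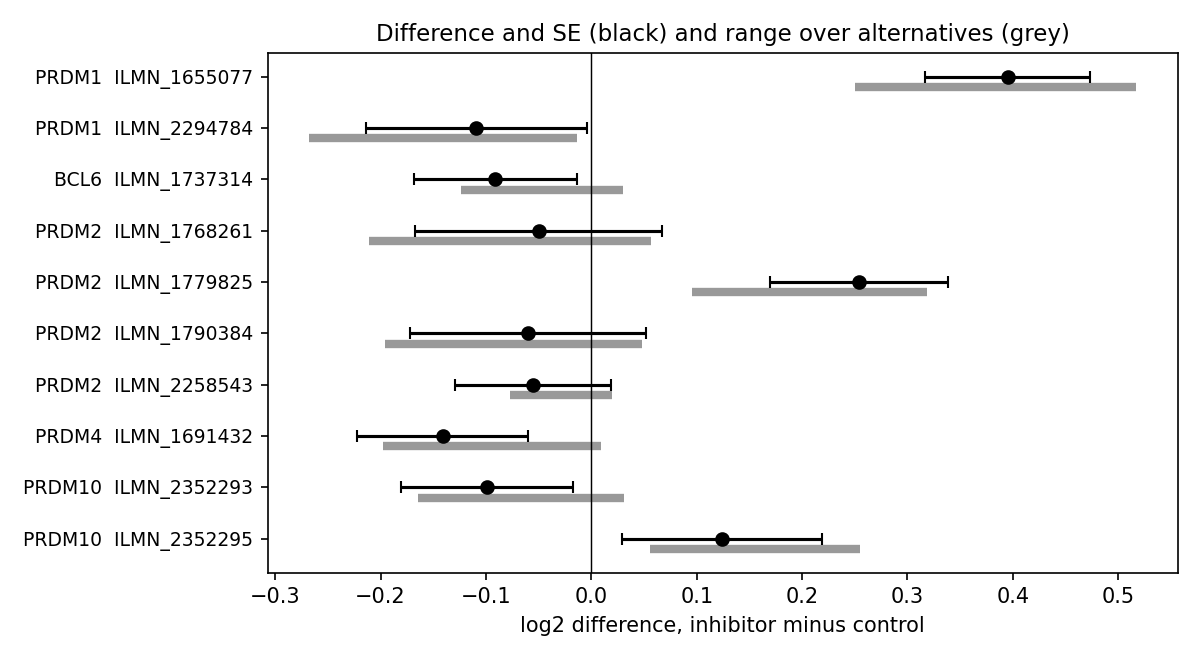
Log2 difference, inhibitor minus control, of each kept member probe with its standard error (black), and the range of the same difference over the alternative settings (grey). PRDM1 probe ILMN_1655077 stayed between 0.25 and 0.52 and the second PRDM1 probe between −0.27 and −0.01, while the range of BCL6 ran from −0.12 to 0.03.

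Differences of opposite sign between probes of 1 gene were common on these arrays, where 0 of 21928 kept probes passed the threshold. The median standard error of a difference was 0.089 over all kept probes, so the sign of a small difference says little. Over 5369 pairs of kept probes that share a gene symbol, 45.5% had differences of opposite sign, and the median gap between the differences of a pair was 0.11 log2 units. Pairs annotated to the same transcript had 45.2% and pairs annotated to different transcripts 45.8%. The PRDM1 pair had a gap of 0.50, of which 0.40 is the difference of ILMN_1655077 by which PRDM1 was chosen, so its place among the pairs is not read. Of the 6 PRDM2 pairs, the 3 that include ILMN_1779825 had gaps of 0.30 to 0.31 and opposite signs, and the other 3 had gaps of 0.01 or less. The PRDM10 pair had a gap of 0.22, and 18.0% of pairs had a wider one.

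The gap within PRDM1 is given array by array as a description only, since PRDM1 was chosen by the difference of its first probe. The first probe minus the second, each taken from its own control mean, was 0.03, 0.11 and −0.14 on the controls and 0.60, 0.59 and 0.32 with the inhibitor. It was smallest on inhibitor replicate 3, where the second probe was at its control mean. The probe sequences were not used here, so which exons each probe reads, and whether it lies in a region that another transcript lacks, cannot be told.

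**Figure D4:**
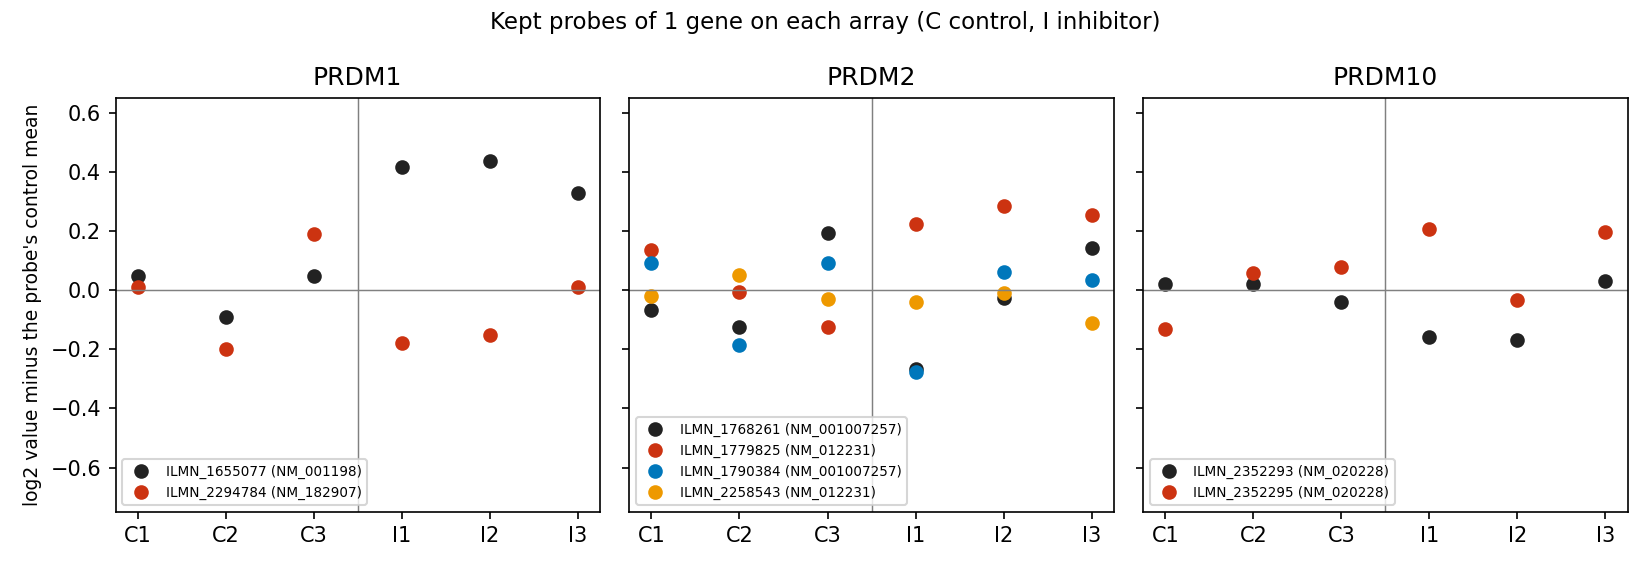
Log2 value of each kept probe of PRDM1, PRDM2 and PRDM10 on control arrays C1 to C3 and inhibitor arrays I1 to I3, minus that probe's control mean, with the annotated transcript in the key. The PRDM1 probes lie 0.60, 0.59 and 0.32 apart on the inhibitor arrays, a description only, since PRDM1 was chosen by ILMN_1655077. Of the PRDM2 probes only ILMN_1779825 lies above all its controls on all 3 inhibitor arrays.

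Over all kept probes, 2 arrays were far from the rest of their groups on the first principal component. Control replicate 2 was at −15.7, against −4.12 and −1.67 for the other controls, and inhibitor replicate 3 was at −9.11, against 17.5 and 13.2 for the other inhibitor arrays. For PRDM1 probe ILMN_1655077 these were the lowest control and the lowest inhibitor array. Without both, its difference was 0.38, and that of the second PRDM1 probe was −0.27. BCL6 then had −0.12, PRDM4 −0.19, and the PRDM10 probes −0.15 and 0.11. Of the PRDM2 probes, ILMN_1768261 moved from −0.05 to −0.21, ILMN_1790384 from −0.06 to −0.20 and ILMN_2258543 from −0.06 to −0.001, while ILMN_1779825 stayed at 0.25.

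The genes nearest to PRDM1 in pattern were sought among 16310 named kept probes, by the root mean square over the 6 arrays of the difference between log2 values, each centred on its own mean. Nearest was UPK3B, a uroplakin of the urinary lining and mesothelium, at 0.036 log2 units, with 6.07, 5.85 and 6.05 on the controls and 6.41, 6.35 and 6.31 with the inhibitor. Next were CLDN16, a tight junction claudin, at 0.040, the long non-coding RNA GIRGL at 0.041, ZSWIM3 at 0.042 and SHLD1, a factor in DNA break repair, at 0.043. Like PRDM1, all 5 had their lowest control value on control replicate 2. As they were picked by nearness to PRDM1 on these same arrays, that is part of the choice and no separate result. The probes nearest to BCL6 were VAMP8 (0.015), ATPAF1 (0.016), IFI30 (0.018), LYPLA1 (0.021) and TAP2 (0.022), but BCL6 itself moved only 0.069 about its mean, so this nearness is shared by flat profiles. With 6 arrays in 2 groups, such likeness mostly restates the difference between the groups.

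Other PRDM genes showed little. Of 12 further family genes 11 had a probe and 6 passed the filter. Of these 3 were higher and 3 lower, against 6344 higher and 5839 lower of all 12183 measured genes. The family genes had a median difference of −0.02 against 0.01 over all measured genes, and 0 were past the threshold in either direction. PRDM6, a repressor in smooth muscle, had 5.46, 5.37 and 5.50 on the controls and 5.55, 5.51 and 5.64 with the inhibitor. The difference was 0.12 ± 0.08 (SE) at a limma adjusted p of 0.612. PRDM6 was the only 1 of the 6 whose groups did not overlap, as they did not in 1988 of all 12183 measured genes. PRDM8, PRDM9 and PRDM11 had −0.12, −0.07 and −0.06. MECOM, named after its values were seen, passed with 1 probe, at log2 values of 11.84 to 11.95 over the 6 arrays and a difference of 0.05. PRDM7, PRDM12, PRDM13, PRDM14 and PRDM16 did not pass the filter.

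The corepressors that PRDM1 is reported to work with all passed the filter, 9 of 9 genes, against 12183 of all 18852 genes. With the inhibitor 7 had a higher and 2 a lower mean, against 6344 higher and 5839 lower of the 12183. The median difference of the corepressors was 0.07, and 0 were past the threshold. TLE4, a Groucho family corepressor, had 0.20 ± 0.13 (SE), the histone methyltransferase EHMT2 0.11 ± 0.08 and the deacetylases HDAC1 and HDAC2 0.12 and 0.07. The limma adjusted p of these 4 genes lay between 0.627 and 0.806, and in each the groups overlapped.

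Of 12 partners reported for BCL6, 10 had a probe and 10 were measured. With the inhibitor 8 were higher and 2 lower, against 6344 higher and 5839 lower of all 12183 measured genes. The median difference of the partners was 0.04, and 0 were past the threshold. BCOR, a corepressor that binds the BTB domain of BCL6, had 8.49, 8.49 and 8.40 on the controls and 8.24, 8.21 and 8.37 with the inhibitor. The difference was −0.19 ± 0.08 (SE, limma adjusted p 0.480), the groups did not overlap, and the other kept BCOR probe had −0.02. ZBTB17, which brings BCL6 to promoters such as that of CDKN1A, had −0.14 ± 0.08. CTBP2 had 0.14 ± 0.08 and MTA3 0.15 ± 0.09, both with a limma adjusted p of 0.585. For CTBP2 the groups did not overlap either, with the inhibitor arrays above. Groups without overlap were found in 2 of the 10 partners and in 1988 of all 12183 measured genes.

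Genes that PRDM1 is reported to repress were mostly not measurable in these cells. Of 12 genes 11 had a probe and 4 were measured, the B cell genes CIITA, PAX5 and SPIB being below the filter, and 0 passed the threshold. Of the 4, 3 were higher and 1 lower, against 6344 higher and 5839 lower of all 12183 measured genes. Single arrays change the count of the 4, with 0 higher without control replicate 1 or control replicate 3. The oncogene MYC had 11.40, 11.63 and 11.42 on the controls and 11.35, 11.34 and 11.77 with the inhibitor, a difference of 0.00 ± 0.12 (SE). ID3, an inhibitor of helix-loop-helix factors, had 0.01 ± 0.21, with its highest values on control replicate 2 (7.17) and inhibitor replicate 3 (7.36). The sphingosine phosphate receptor S1PR1 had 0.04 ± 0.13, and BCL6, the other measured gene of the list, had −0.09. The standard errors of MYC, ID3 and S1PR1 exceed those of PRDM1, and a difference of the size seen for PRDM1 in ID3 would be within 2 of its standard errors.

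Genes that BCL6 is reported to repress were split, with 8 of 13 measured genes higher and 5 lower, a median of 0.01 and 0 past the threshold. Over all 12183 measured genes 6344 were higher and 5839 lower. The list of genes reported as repressed by BCL6 holds PRDM1 among the higher genes. As PRDM1 was chosen by its difference on these arrays, the count is not read against that of all genes. The survival gene BCL2 had 4.44, 4.65 and 4.59 on the controls and 4.77, 4.80 and 4.73 with the inhibitor, a difference of 0.21 ± 0.08 (SE, limma adjusted p 0.463) at a low level. The cell cycle inhibitor CDKN1B had 0.12 ± 0.08 and GATA3 −0.18 ± 0.12. Of the regulators of PRDM1 or BCL6 transcription 14 were measured. With the inhibitor 6 of these regulators were higher and 8 lower, their median difference was −0.004, and 0 were past the threshold. STAT3, which induces PRDM1 in B cells, had 10.04, 10.02 and 9.95 against 9.88, 9.88 and 9.85, a difference of −0.13 ± 0.07 (limma adjusted p 0.558). Its further probes had −0.21 and −0.01. XBP1, a plasma cell and stress factor, had 0.12 ± 0.08, STAT6 0.09 ± 0.07 and IRF8 −0.19 ± 0.12. IRF4, the factor that drives PRDM1 in plasma cells, did not pass the filter.

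**Figure D5:**
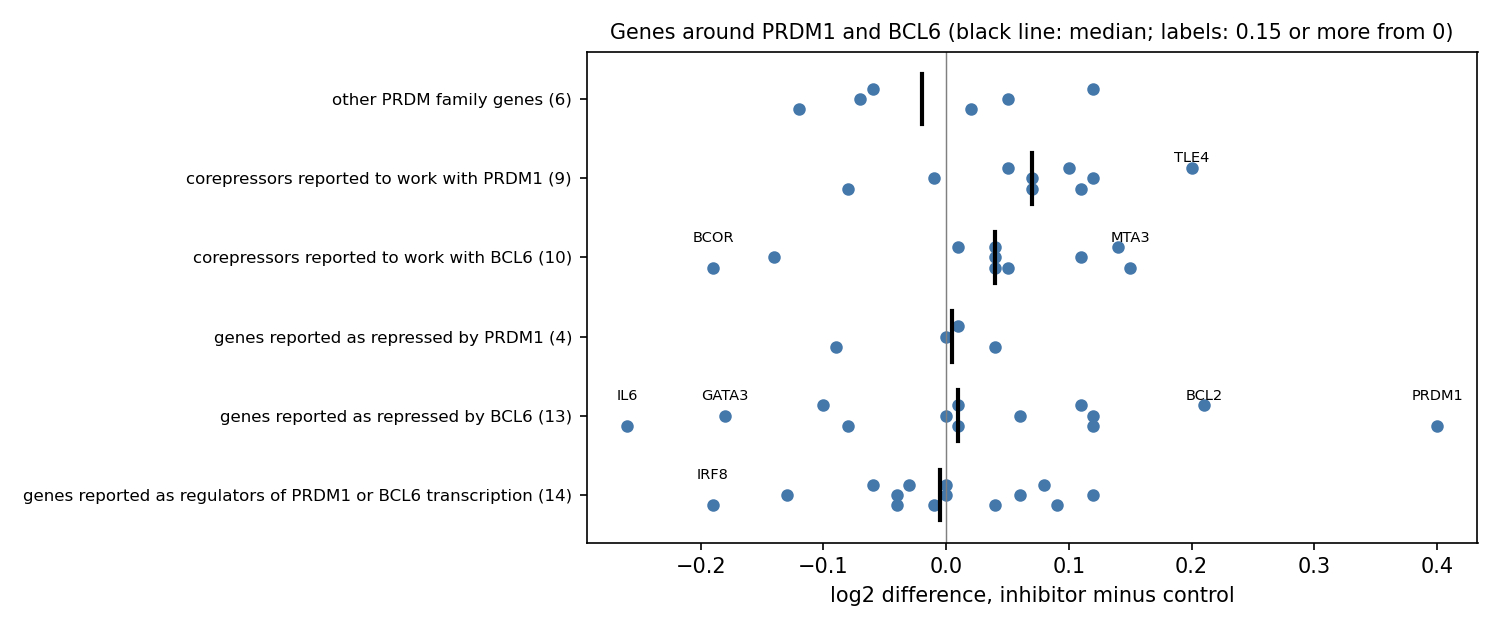
Log2 difference, inhibitor minus control, of every measured gene (blue points) in 6 lists of genes around PRDM1 and BCL6, with the number measured in brackets and the list median as a black line. The list medians lie between −0.02 and 0.07, and PRDM1 itself, in the list of genes reported as repressed by BCL6, is the point at 0.40.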

How the data were processed

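The authors deposited, for each array, the mean bead signal of every probe as an intensity on a linear scale, its bead SD and number of beads, and a detection score, a fraction from 0 to 1 that was read as 1 minus the detection p. BeadStudio, of no stated version, made these tables, per the submitters' processing notes. Another deposited table held normalized intensity. Both were joined by probe rank on all 6 arrays, which matched 48803 of 48803 probes, and symbols came from the platform annotation.

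Signals were background-corrected and quantile-normalized to log2 values with limma's neqc (limma 3.58.1, R 4.3.3, offset 16). The 21928 probes whose detection score passed 0.95 on 3 or more arrays were kept. Differences were fitted with lmFit and eBayes over all kept probes, two-sided, with Benjamini-Hochberg adjustment, without a replicate block. The labels do not say whether equal replicate numbers pair the samples. Deviations of equal numbers correlated at 0.089, −0.258 and −0.213, which cannot tell how the cultures were set up. A fit with a replicate block is among the alternatives. For lists, the kept probe with the highest mean stood for a gene. The rule for named genes took every member probe, up to 4 genes of each list with the lowest p, and the 5 probes nearest to PRDM1 and to BCL6. The procedure was tested on simulated data, but no outcome of that test is given here, so no support is drawn from it. Members, lists and tests were chosen with earlier results of these data known. Alternatives are given in the closing section. Arrays have no read depth, and their number limits the precision. Figures were drawn with matplotlib 3.10.9.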

Additional observations from a re-analysis of the deposited data

How the results depend on the processing

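Probes past the threshold numbered 0 with limma under every alternative run, 0 with a Welch test, and 0 with the replicate block, against 2199 probes at an unadjusted p under 0.05. PRDM1 probe ILMN_1655077 was higher under all 18 alternatives, with a limma adjusted p from 0.089 to 0.826. PRDM1 was chosen by the difference of this probe, and its groups do not overlap, so leaving arrays out could not turn its sign. That it stayed higher is therefore a description and no support. The difference of ILMN_1655077 was 0.31 without background correction, 0.25 from the series value table and 0.29 with an offset of 50. With median centring it was 0.52, or 0.42 relative to the median of all kept probes. The difference lay between 0.35 and 0.43 with 1 array left out and was 0.40 with the replicate block. By construction, kept background and a larger offset compress differences at low signal. The second PRDM1 probe lay between −0.21 and −0.01 with 1 array left out and was −0.27 without control replicate 2 and inhibitor replicate 3, the 1 alternative chosen after the data were seen. BCL6 lay between −0.12 and −0.05 with 1 array left out and was 0.03 with median centring (−0.07 relative to the median of all kept probes). Median centring, which lifts the median of all kept probes to 0.10, also turned ILMN_2258543 of PRDM2 (0.02), PRDM4 (0.01) and ILMN_2352293 of PRDM10 (0.03), which relative to that median were −0.08, −0.09 and −0.07. The remaining sign changes were ILMN_1768261 and ILMN_1790384 of PRDM2 (0.06 and 0.05) without inhibitor replicate 1, the former also without control replicate 3. With median centring 13 of 14 regulators were above 0 in place of 6, and 10 were above the median of all kept probes in place of 5. For the 9 corepressors of PRDM1 these counts were 9 in place of 7 and 8 in place of 7. Without control replicate 1 or control replicate 3, 0 of the 4 genes reported as repressed by PRDM1 were higher in place of 3. The cause of the shifts with single arrays left out was not tested. No block for the chip was fitted, since the files name no chip. Closeness to background limits what can be read for the 4 of 14 member probes below the filter. It also limits the kept PRDM2 probes ILMN_1768261, ILMN_1779825 and ILMN_1790384. Their signals were 51.4 to 59.5, 51.5 to 60.8 and 49.1 to 55.2, against lowest detected signals of 46.2 to 52.9.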
